A study of Mus musculus with 4 samples.

Results

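Genes for ATP-gated, acid-sensing and Piezo channels were followed across the neuron populations of the adult mouse cochlea. The set was a list of 10 genes out of 18143 in the tables: P2rx2, P2rx3, P2rx4 and P2rx6 for ATP-gated P2X channels, Asic1, Asic2, Asic3 and Asic4 for acid-sensing ion channels, and Piezo1 and Piezo2 for stretch-gated channels. Of the 10, 9 had a row in the tables and Asic4 was not analysed here. A low-count filter was passed by 7, and P2rx3, with 14 molecules in all cells, and Asic2, with 18, fell below it.

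The cells came from spiral ganglia of 4 wild-type male CBA/CaJ mice aged 9 weeks, 1 library per mouse, and the labels name no treatment. Tissue was digested with enzymes at 37 °C, and cells were captured 2.5 h after death. The authors' deposited annotation puts the 6713 cells into 505 putative spiral ganglion neurons, 95 type II neurons and 6113 type I neurons, of which 2384 are type IA, 1625 type IB and 2104 type IC. Libraries were made by droplet capture of messenger RNA near its 3′ end, with a unique molecular identifier (UMI) on each captured molecule, so that a count is a number of molecules. The mouse was the replicate (n = 4), and UMIs were summed per mouse and population.

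P2X receptors are cation channels that open when ATP binds from outside the cell, and several subunits line each pore. Acid-sensing ion channels (ASICs) are sodium channels opened by protons, and Piezo channels open when the membrane is stretched. Sensory neurons use all of these families to detect tissue damage, acid or touch. In the cochlea ATP is released when hair cells are injured, and type II neurons, the thin fibres that contact outer hair cells, have been proposed to sense such damage. Type I neurons are the myelinated fibres that carry sound information from inner hair cells.

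The 3 genes called lower in type II neurons lie on different chromosomes of the mouse genome (build GRCm38, GENCODE vM21 annotation). Asic3 spans bases 24413392 to 24417835 of chromosome 5 on the plus strand, Asic1 bases 99670368 to 99701130 of chromosome 15 (plus) and P2rx6 bases 17561885 to 17577800 of chromosome 16 (plus). All 3 are annotated as protein-coding.

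Because Asic1, Asic3 and P2rx6 were all lower in type II, the 250 bases before the RefSeq start of each are shown (GRCm38.p6, plus strand, 5′ to 3′). They were searched on both strands for CANNTG (E-box), GATAA (bound by GATA factors), TGTGGT (bound by Runx factors) and GGGCGG (GC box), and capitals mark the matches. The windows are chr15:99691974-99692223 for Asic1, chr5:24413201-24413450 for Asic3 and chr16:17561635-17561884 for P2rx6.
Asic1: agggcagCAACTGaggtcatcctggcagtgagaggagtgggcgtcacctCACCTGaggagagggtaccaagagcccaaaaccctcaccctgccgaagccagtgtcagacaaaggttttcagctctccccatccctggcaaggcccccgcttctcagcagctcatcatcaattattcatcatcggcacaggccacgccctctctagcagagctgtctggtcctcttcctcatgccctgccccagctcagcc
Asic3: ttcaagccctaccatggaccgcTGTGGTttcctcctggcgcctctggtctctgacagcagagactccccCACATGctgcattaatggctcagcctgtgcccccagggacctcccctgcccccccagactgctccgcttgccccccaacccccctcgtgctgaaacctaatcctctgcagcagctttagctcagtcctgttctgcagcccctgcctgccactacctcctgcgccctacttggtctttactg
P2rx6: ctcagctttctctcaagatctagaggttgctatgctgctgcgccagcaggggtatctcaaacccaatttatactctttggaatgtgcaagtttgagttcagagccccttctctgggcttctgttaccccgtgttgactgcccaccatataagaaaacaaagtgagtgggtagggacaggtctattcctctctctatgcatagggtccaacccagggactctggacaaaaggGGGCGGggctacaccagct
The Asic1 window held 2 E-boxes, the Asic3 window 1 E-box and 1 Runx match, and the P2rx6 window 1 GC box, so no motif was found in all of them. Over 32851 promoter windows of the same length, 66.2% held an E-box, 22.6% a GATA match, 14.05% a Runx match and 32.7% a GC box. GC content was 59.2% for Asic1, 61.6% for Asic3 and 50.8% for P2rx6, against a median of 52.4% over all windows. The Asic1 and Asic3 starts lie inside the longer GENCODE genes, so the Asic1 window and the end of the Asic3 window are annotated gene sequence. The matches describe letters, not binding.

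Mice gave 1238, 2232, 1720 and 1523 cells and 15151343 to 27309045 UMIs. Median UMIs per cell ran from 3459 to 8924 in putative neurons, 7874 to 21026 in type II, 8628 to 16762 in type IA, 11233 to 18258 in IB and 12843 to 19884 in IC. The 7 type II marker genes summed to 726 to 1877 UMIs per 1000000 of the sum (CPM) in type II, against 109 to 173 CPM for the subtypes of type I, so the label matched them. Satellite glia markers, 7 of 7 detected in every population, summed to 7852 to 8907 CPM in putative neurons and 5733 to 10565 CPM in type II neurons, against 1103 to 1502 CPM in the type I subtypes. Red blood cell markers averaged 825 to 1035 CPM in every population. No cell carries a label for a type that lacks these channels, so the background from free RNA was not measured, and 26 barcodes occurred in more than 1 mouse.

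Asic3, a channel that opens at mild acidification and is best known from pain and muscle afferents, was the member with the most molecules. It had 58685 UMIs, and a UMI was seen in 368 of 505 putative neurons, the shallowest cells, in 88 of 95 type II cells and in 6053 of 6113 type I cells. Asic1, the most widespread proton-gated subunit of brain and sensory neurons, had 7425 UMIs. P2rx6, a P2X subunit that forms few working channels alone, had 4798, and P2rx4, a P2X subunit that cycles through lysosomes, had 2115. P2rx2, a P2X subunit described in cochlear tissue, had 329, Piezo1, best known from blood vessels, 139 and Piezo2, the channel of touch and position sense, 54. These are totals over all cells, and levels are compared below only within a gene.

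In the same build the other members lie on chromosome 5 (P2rx2, bases 110339812 to 110343212, minus strand, and P2rx4, 122707544 to 122729738, plus), chromosome 2 (P2rx3, 84998583 to 85037462, minus), chromosome 11 (Asic2, 80880169 to 81968457, minus), chromosome 8 (Piezo1, 122481698 to 122551329, minus), chromosome 18 (Piezo2, 63010213 to 63387183, minus) and chromosome 1 (Asic4, 75450436 to 75474343, plus). These too are annotated as protein-coding. The P2rx6 gene overlaps Slc7a4 on the other strand, Piezo1 overlaps Ctu2 and P2rx3 overlaps Ssrp1. The sources used here do not say whether counting used strand, so reads of these pairs may not be separable.

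**Figure D1:**
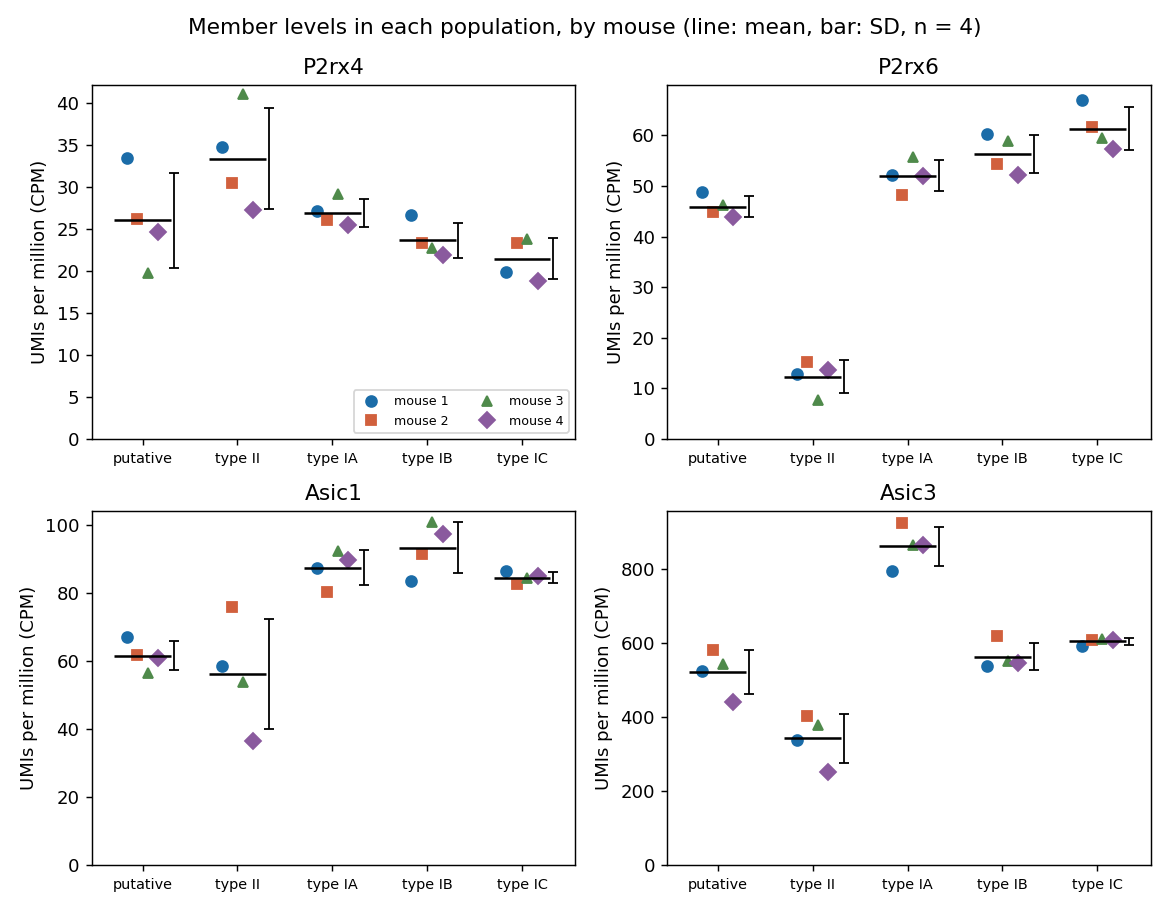
Level of 4 channel genes (y axes, CPM from 0) in each population, with a point per mouse, a line at the mean and a bar for the SD (n = 4). P2rx6 and Asic3 in type II sit below every other population in all mice, and Asic3 in type IA sits above every other population.

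Type II neurons had less Asic3, Asic1 and P2rx6 than type I neurons in every mouse, Piezo2 UMIs that came almost wholly from a single cell, and P2rx4 at 1.39 times the type I level without passing the test. Of the 7 members tested, 3 were lower than in type I in the edgeR quasi-likelihood fit (Benjamini-Hochberg adjusted p under 0.05). Piezo2 also passed, as higher, but it fell below the low-count filter without that cell and is not read as a difference. Over all 13005 genes 23.4% passed in this comparison, 11.9% higher and 11.5% lower. The median log2 difference of the 7 was 0.12, against -0.05 over all genes. The authors' labels describe the same cells, and the sources used here do not tell how they were assigned.

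Both acid sensors that could be tested were lower in type II. Asic3 stood at 338, 403, 377 and 250 CPM in type II of mice 1 to 4, against 793, 923, 863 and 864 in type IA, 537, 617, 551 and 546 in IB and 591, 609, 609 and 606 in IC. The highest type II value was below the lowest of any type I subtype. The log2 difference was -1.01 ± 0.09 (SE, edgeR adjusted p = 1.44e-12), or 2.01-fold lower in type II, with 0 of 4 mice higher. Asic1 stood at 58.5, 75.9, 53.8 and 36.4 CPM in type II neurons, against 80.2 to 92.5 in type IA, 83.6 to 101 in IB and 82.5 to 86.3 in IC. The groups did not overlap here either, and mouse 4 was the lowest of the type II values. The log2 difference of Asic1 was -0.74 ± 0.16 (edgeR adjusted p = 0.000372), lower in all 4 mice.

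P2rx6 was lower in type II by the most among the members called lower. Its levels in type II were 12.8, 15.2, 7.68 and 13.6 CPM, against 52.2, 48.1, 55.8 and 52.1 in type IA, 60.2, 54.4, 58.8 and 52.2 in IB and 67.0, 61.6, 59.5 and 57.2 in IC. The type II values rest on 15 UMIs in 13 cells, and none came near the lowest type I value. The log2 difference was -2.36 ± 0.26 (edgeR adjusted p = 3.19e-10), or 5.13-fold lower in type II. P2rx4 had 34.8, 30.4, 41.0 and 27.3 CPM in type II neurons, against 25.4 to 29.1 in type IA, 21.9 to 26.6 in IB and 18.8 to 23.7 in IC. It was higher in all 4 mice, but the difference of 0.47 ± 0.23 missed the threshold (edgeR adjusted p = 0.133). Among the ATP-gated subunits, then, P2rx6 was lower in type II and P2rx4 was not separated from type I by the test.

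P2rx2 was close to its detection limit in type II. It had 5 UMIs in 4 of 95 type II cells, at 5.49, 7.59, 2.56 and 0 CPM, against 297 UMIs in 286 of 6113 type I cells, at 2.49 to 4.81 CPM. The groups overlapped, and the log2 difference of 0.16 ± 0.66 (edgeR adjusted p = 0.904) had an error wide enough for a change in either direction. P2rx2 and P2rx3 form a joint channel in pain-sensing neurons of other ganglia. P2rx2 UMIs were found in 316 cells and P2rx3 UMIs in 10, numbers that would put 0.471 cells with both among the 6713 if they fell independently, so the 0 cells found with both say nothing about a joint channel.

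At one fixed depth of 4215 UMIs per cell, 80.4% ± 15.4 of type II cells had an Asic3 UMI (SD, n = 4 mice), against 96.7% ± 0.459 in type IA, 87.4% ± 1.74 in IB and 91.3% ± 1.85 in IC. The type II spread covered the type IB and IC shares. Without thinning the shares were 93.4%, 99.5%, 97.7% and 99.3%. For Asic1 the thinned share was 24.0% ± 9.75 in type II, against 32.4% to 34.1% in the type I subtypes, so the type II spread reached the type I values. For P2rx6 it was 1.92% ± 3.85 in type II, or 1 of 90 cells, against 21.1% to 21.6% in the type I subtypes, and 14.2% against 46.0% to 55.5% without thinning. Thinning left out 5 type II, 205 type IA, 98 type IB and 126 type IC cells that were shallower.

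Piezo2 and P2rx3 in type II came almost wholly from 1 cell of mouse 4. Piezo2 had 0, 7.59, 0 and 36.4 CPM in type II neurons, against 0 to 0.416 in type IA, 0.166 to 0.783 in IB and 0.373 to 0.699 in IC. Mice 1 and 3 had no UMI, and 8 of the 9 UMIs were in the single cell. The log2 difference was 4.07 ± 0.89 (edgeR adjusted p = 0.000315, higher in 2 of 4 mice). Without mouse 4 it was 1.25 ± 1.78 (adjusted p = 0.712), and Piezo2 fell below the low-count filter without that cell, without mouse 2, without shallow cells, without type II cells lacking Prph and with rebuilt labels. P2rx3 had 0, 0, 0 and 22.7 CPM in type II, all 5 UMIs in the same cell, against 9 UMIs in 9 of 6113 type I cells. With no low-count filter its log2 difference was 4.74 ± 1.23 (edgeR adjusted p = 0.00113), a value that rests on that cell.

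The cell carries a type II label and 25769 UMIs, the most of the 23 type II cells of mouse 4. It held 103 UMIs of Prph (peripherin, an intermediate filament of type II and other thin fibres), 127 of Tac1 (substance P precursor), 75 of Cartpt (CART peptide precursor) and 6 of Prdm12 (a transcription factor of pain-sensing neurons). The other 94 type II cells held 394 UMIs of Prph and 88 of Tac1 and none of Cartpt or Prdm12. Over all 6712 other cells, Cartpt had 8 UMIs and Prdm12 2. Genes that were high in the other type II cells were at 0 in it, with 412 UMIs of Gata3, 5738 of Myl1, 1391 of Dupd1 and 116 of Th in the other 94. Among the channels it held 11 UMIs of Asic3 and 4 of Asic1 and none of P2rx2, P2rx4, P2rx6, Asic2 or Piezo1. These genes were chosen after the cell had been seen. Its type II label was taken as it stands, and whether the cell is a type II neuron is not settled here.

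Asic2, a subunit that joins other ASIC subunits and alters their acid response, had 8 UMIs in 5 type II cells, at 10.98, 0, 2.56 and 4.54 CPM, against 10 UMIs in 9 type I cells. With no low-count filter its log2 difference was 5.22 ± 1.03 (edgeR adjusted p = 7.05e-06), and without mouse 2, where it reached the filter, 5.43 ± 1.01 (6.51e-05). Outside type II it stood at 0.625 CPM or less in every sum, so it reached that filter only through type II. Resting on 8 UMIs, neither value is read as a difference. All 8 UMIs lay in type II cells without a Prph UMI, and 3 of the 5 cells were from mouse 1, with 29972 to 53364 UMIs each. The 37 type II cells without Prph held 686881 UMIs, and the 58 with Prph held 601917 and no Asic2 UMI, which allows up to 4.98 CPM for counting error only.

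Type II cells with and without Prph were set side by side for Asic1, Asic3, P2rx6 and P2rx4. With 4 mice the exact two-sided sign-flip permutation test cannot go below p = 0.125, so the values are a description. Asic1 in type II cells with Prph stood at 13.8, 36.7, 27.8 and 37.6 CPM, against 74.7, 140, 85.9 and 33.01 CPM in type II cells without Prph. Mice 1 to 3 were lower with Prph and mouse 4 was not. In mouse 4, 4 of the 6 Asic1 UMIs with Prph were in the single cell described above, and without that cell, a choice made after seeing the data, mouse 4 stood at 15.0 CPM with Prph and all 4 mice were lower with Prph. In mouse 4 this sets 2 Asic1 UMIs with Prph against 2 without, where 3 UMIs without Prph are 49.5 CPM. Mouse 4 therefore gives no direction. Asic3 averaged 329 ± 76.6 CPM with Prph and 330 ± 102 CPM without. P2rx6 averaged 10.2 ± 2.67 CPM with Prph and 14.3 ± 6.09 CPM without. P2rx4 averaged 30.7 ± 4.33 CPM with Prph and 35.7 ± 14.6 CPM without. Median depth was 9911 UMIs per cell with Prph and 15248 without.

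**Figure D2:**
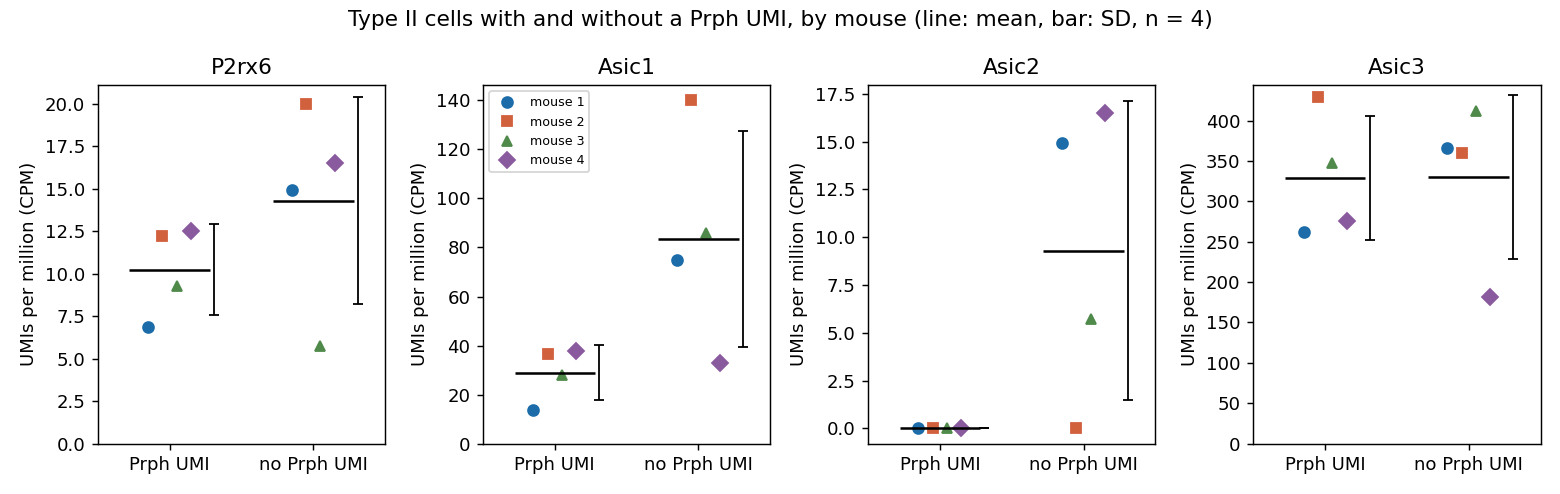
Level of 4 channel genes (y axes, CPM) in type II cells with a Prph UMI (left) and without (right), with a point per mouse, a line at the mean and a bar for the SD (n = 4). Asic2 is at 0 with Prph in all mice, and Asic1 is lower with Prph in mice 1 to 3, with the single P2rx3 cell of mouse 4 included.

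The Asic1 gap to type I moved with the choice of type II cells, while the direction held in the settings that were fitted. Against type I it was -1.80 on the log2 scale with type II cells that had Prph (edgeR adjusted p = 1.95e-07), and -1.45 with labels rebuilt without the members (adjusted p = 1.08e-06). Without cells holding 3 or more UMIs of the glial gene Fabp7 it was -0.50 (adjusted p = 0.0435). Type II cells without Prph were not fitted alone against type I. Asic1 averaged 83.4 ± 44.0 CPM in them, near the subtype means of 84.5 to 93.3 CPM in type I. A lower Asic1 level is thus not shown for type II cells without Prph. Asic3 ran from -1.25 to -0.92 and P2rx6 from -2.65 to -2.14 over the same settings. Both kept an adjusted p under the threshold.

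**Figure D3:**
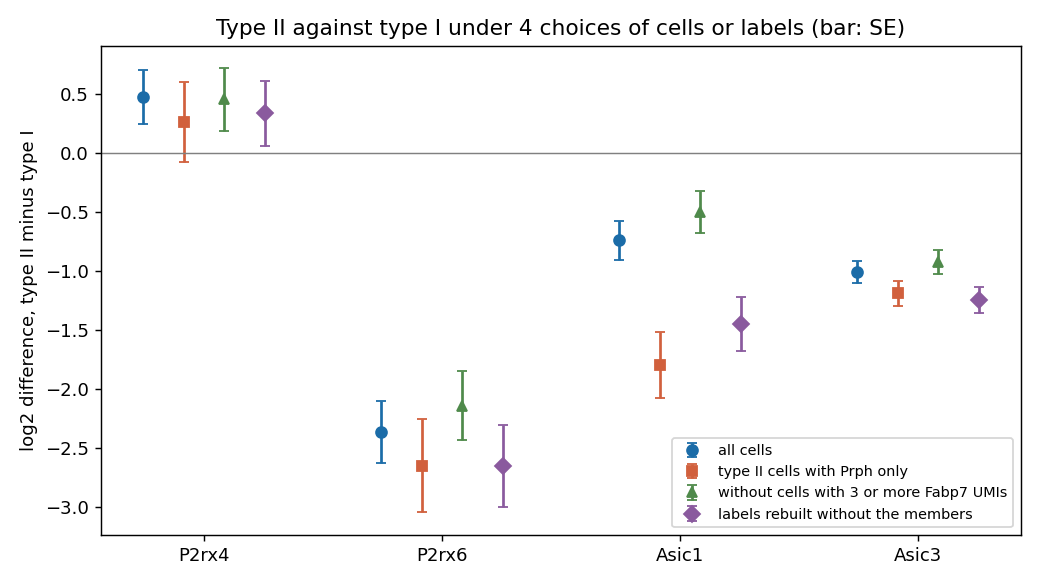
Log2 difference of type II minus type I (y axis) for 4 channel genes with all cells and with 3 other choices of cells or labels (bars are SE). Asic3, Asic1 and P2rx6 lie below 0 in each, and Asic1 spreads from -1.80 to -0.50.

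Within type I, type IA neurons stood apart by a higher Asic3 level, the largest difference of a member between subtypes among those past the threshold. Type IA also had more P2rx4 and less P2rx6 than the other subtypes. In type IA 3 of 7 members differed, 2 higher and 1 lower, where 28.2% of all genes passed (3667 genes, or 2011 without the mouse block). Type IA neurons are the calretinin-rich group, thought to be the fibres most sensitive to faint sound.

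Asic3 in type IA, at 793 to 923 CPM, overlapped neither type IB (537 to 617) nor type IC (591 to 609). The log2 difference from the other subtypes was 0.57 ± 0.06 (edgeR adjusted p = 1.35e-11), or 1.49-fold, higher in 4 of 4 mice. P2rx4 was at 27.1, 26.0, 29.1 and 25.4 CPM in type IA, against 26.6, 23.3, 22.7 and 21.9 in IB and 19.9, 23.2, 23.7 and 18.8 in IC. Type IA was above type IC in every mouse without overlap, and overlapped type IB. Its difference was 0.26 ± 0.07 (edgeR adjusted p = 0.00418). P2rx6 was lower in type IA in all mice by a small margin, -0.17 ± 0.05 (edgeR adjusted p = 0.00825), and this call was lost without the mouse block (adjusted p = 0.0881), without mouse 1 (0.0997), without mouse 2 (0.131) and with rebuilt labels (0.195).

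The higher Asic3 level of type IA was spread over its cells. At 4215 UMIs per cell, type IA cells had a mean of 3.79 Asic3 UMIs, type IB cells 2.47 and type IC cells 2.70. Cells with 8 or more Asic3 UMIs were 6.69% ± 1.43 of type IA, 1.14% ± 0.762 of IB and 1.69% ± 0.565 of IC. Cells with none were 3.25% of type IA, 12.6% of IB and 8.67% of IC, where Poisson sampling around the mean gives 2.34%, 8.59% and 6.77%. The variance was 1.46, 1.28 and 1.26 times the mean, so cells of a subtype differed in Asic3 somewhat beyond counting error. For Asic1, P2rx6 and P2rx4 the variance was 0.940 to 1.05 times the mean. At their thinned means of 0.0809 to 0.415 UMIs per cell, a relative spread as large as that of Asic3 would give only 1.01 to 1.05 times, so such a spread was not detectable for these genes at this depth.

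**Figure D4:**
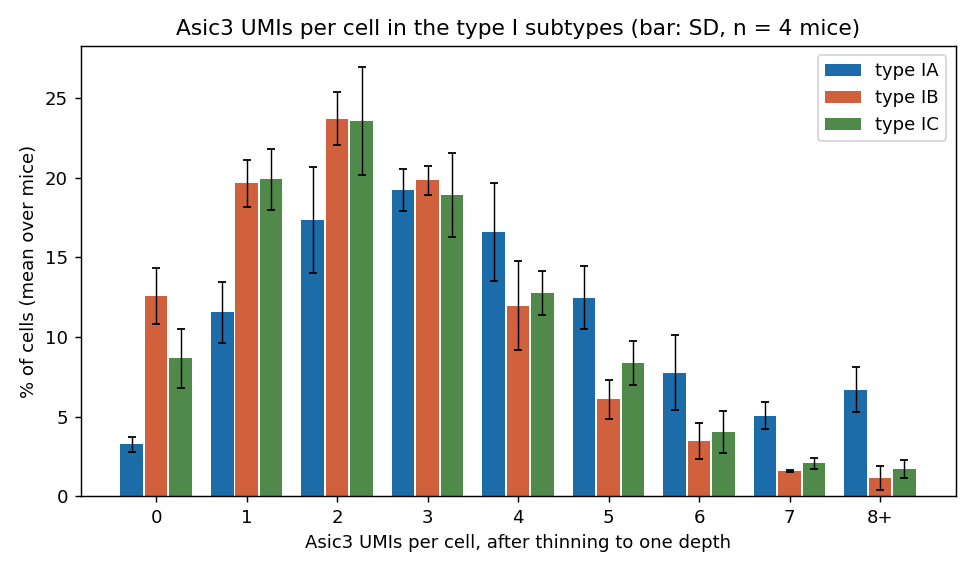
Share of cells (y axis, % of cells, mean over 4 mice with SD bars) with 0 to 8 or more Asic3 UMIs (x axis) in types IA, IB and IC after thinning each cell to 4215 UMIs. Type IA has the fewest cells at 0 (3.25%) and the most at 8 or more (6.69%).

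Type IB neurons, the calbindin-rich group, differed in 1 of 7 members, Asic3, where 6.17% of all genes passed, 3.72% higher and 2.45% lower (802 genes, or 310 without the mouse block). Asic3 was lower in all 4 mice, by -0.36 ± 0.06 (edgeR adjusted p = 2.32e-05). Asic1 averaged 93.3 ± 7.58 CPM in type IB and less elsewhere, with 87.4 ± 5.24 (type IA) and 84.5 ± 1.60 CPM (type IC). That difference, 0.12 ± 0.05, was higher in 3 of 4 mice and missed the threshold (edgeR adjusted p = 0.151). Without mouse 3 the type IB comparison had 492 genes past the threshold, and Asic3 was the 1 member among them.

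Type IC neurons, the Lypd1 group, differed in 3 of 7 members, 1 higher and 2 lower, where 25.9% of all genes passed (3366 genes, or 1684 without the mouse block). P2rx6 was higher by 0.17 ± 0.05 (edgeR adjusted p = 0.00905, 4 of 4 mice), Asic3 lower by -0.22 ± 0.06 (0.00445) and P2rx4 lower by -0.24 ± 0.08 (0.0156), each lower in all 4 mice. Without the mouse block 0 of the 3 passed in edgeR, with adjusted p of 0.0712 for Asic3, 0.0793 for P2rx4 and 0.0967 for P2rx6 and all 3 under 0.05 before adjustment, and DESeq2 with the block called 2, without P2rx4 (0.0571). Leaving out mouse 1 ended the P2rx4 (0.187) and P2rx6 (0.0806) calls, leaving out mouse 2 the Asic3 (0.0808) and P2rx6 (0.164) calls, leaving out mouse 3 the Asic3 call (0.0506), and leaving out mouse 4 the P2rx4 call (0.0581). Rebuilt labels ended the P2rx6 call (0.11, adjusted p = 0.0931). The comparisons of the subtypes share their samples and are not independent of each other.

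**Figure D5:**
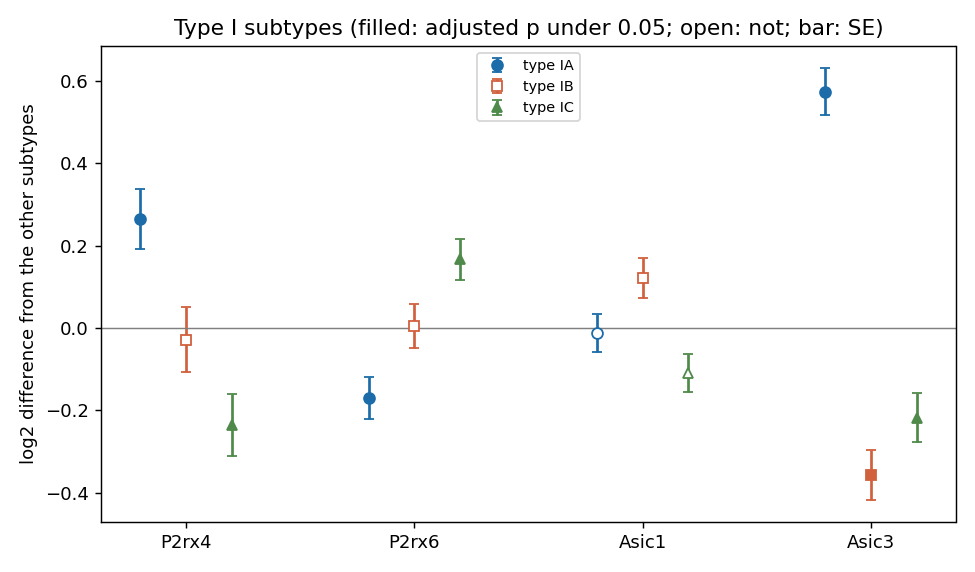
Log2 difference of each type I subtype from the mean of the other subtypes (y axis) for 4 channel genes, with SE bars, filled where the adjusted p is under 0.05. Asic3 is at 0.57 in type IA, -0.36 in IB and -0.22 in IC, and the other genes lie between -0.24 and 0.26.

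P2rx6 ran in a graded order. Its mean was highest in type IC (61.3 ± 4.17 CPM), then type IB (56.4 ± 3.75), type IA (52.1 ± 3.12), putative neurons (45.9 ± 2.12) and type II (12.3 ± 3.25). Each step held in 4 of 4 mice, yet neighbours overlapped between mice except for putative neurons over type II. For Asic3 the order was type IA, type IC, type IB, putative, type II, where type IA over type IC and putative over type II did not overlap. For Asic1 it was type IB, type IA, type IC, putative, type II, with no overlap only between type IC and putative neurons. For P2rx4 it was type II, type IA, putative, type IB, type IC, and all neighbours overlapped.

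Putative neurons had less Asic1 and more Piezo1 than the unweighted mean of the other populations. Of 7 members, 2 differed, 1 in each direction, where 13.7% of all genes passed, 10.2% higher and 3.50% lower. Asic1 was at 66.9, 61.8, 56.6 and 61.0 CPM in putative neurons, below every type I value, and overlapped type II. The difference was -0.34 ± 0.10 (edgeR adjusted p = 0.0193). It was -0.06 (adjusted p = 0.824) when type II cells without Prph were left out of the mean, -0.10 (0.685) with rebuilt labels, and lost without mouse 2 (0.0789) or mouse 3 (0.137). Asic3 averaged 521 ± 59.9 CPM in putative neurons and P2rx6 45.9 ± 2.12, and neither difference passed (edgeR adjusted p = 0.404 and 0.153). That mean includes type II, where both were low.

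Piezo1 had 21 UMIs in 20 putative cells, at 0, 4.99, 4.71 and 8.56 CPM, against 3.66, 0, 0 and 0 CPM in type II and, for the subtypes of type I, 0.754 to 2.08 CPM. Mouse 1 had none, and the other mice were above all type I values. The difference was 1.66 ± 0.46 (edgeR adjusted p = 0.00924, higher in 3 of 4 mice). The call was lost without mouse 2 (0.0790), mouse 3 (0.0733) or mouse 4 (0.147), and without the shallow cells (1.37, 0.102). The difference was 3.36 (0.000729) without mouse 1, the mouse with no Piezo1 UMI in putative neurons, and 3.10 (0.00255) when type II cells without Prph were left out of the mean. Both settings also removed the only Piezo1 UMIs of type II, which is part of that mean. The log2 difference of type II from type I moved from 0.12 to -5.67 ± 3.98 and -5.65 ± 4.37. The larger values are therefore not read as a stronger difference of putative neurons. Endothelial markers, 6 of 6 detected in each population, summed to 44.3 to 111 CPM in putative neurons, 43.9 to 74.3 in type II and 29.5 to 52.7 in the type I subtypes. Fibroblast markers, 7 of 7 detected, summed to 922 to 1834 CPM in putative neurons, 371 to 727 in type II and 324 to 622 in type I. The part of other cells' RNA in the Piezo1 and Asic1 values was not tested.

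Piezo2 in putative neurons was at 1.39, 2.50, 4.71 and 1.07 CPM, 11 UMIs in 11 cells, above all type I values. Its difference of 1.47 ± 0.66 did not pass (edgeR adjusted p = 0.145), and it passed without mouse 4 (2.53, adjusted p = 0.0155), the mouse of the single type II cell with 8 Piezo2 UMIs. Leaving out that mouse also lowered type II, part of the mean, from a log2 difference to type I of 4.07 to 1.25 ± 1.78. Type I sums reached at most 0.783 CPM, so Piezo2 entered that test only through putative and type II sums. The call is not read as a difference. P2rx2 was at 2.79, 9.36, 7.54 and 2.14 CPM in putative neurons and overlapped all other populations. P2rx3 and Asic2 had no UMI in putative neurons, which allows up to 0.695 CPM for counting error only.

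The genes whose pattern over the 20 sums was most like that of a member, after removal of mouse means, were found among 9700 genes. They are a description, since all sums of a mouse share a library. For Asic3 they were Lrrk1 (Pearson r = 0.947), Pip5kl1 (0.945) and Tfrc (0.944). For Asic1 they were Brsk2 (0.960), Slc6a15 (0.952) and Mgst3 (0.947). For P2rx6 they were Osbpl3 (0.971), Col19a1 (0.970) and Ptcd2 (0.965), and for P2rx4 Tmem191c (0.885), Sesn1 (0.847) and Hsd17b12 (0.839). Among the members, P2rx6 and Asic3 had r = 0.791, Asic1 and Asic3 0.776, P2rx6 and Asic1 0.744, and P2rx4 and P2rx6 -0.696.

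Other genes of the same pathways were taken from 6 lists, chosen like the members with earlier results known. Their median log2 differences of type II from type I were 0.30 for ATP turnover and release, -0.02 for ASIC relatives and partners, -0.10 for other damage-sensing channels, -0.44 for other mechanosensory genes, 1.27 for P2Y and adenosine receptors and -0.02 for P2X relatives, against -0.05 over all genes. The median of the 3 P2Y and adenosine receptors was -1.46 without type II cells lacking Prph and 0.31 without Fabp7-bearing cells, and that of the 5 other damage-sensing channels 0.26 and -0.56, so these medians hold no direction. In type II against type I, the list of ATP turnover and release had 6 of 14 tested genes past the threshold, 3 higher and 3 lower, by edgeR and 6 by DESeq2, where 11.9% of all genes passed as higher and 11.5% as lower. Panx1, a membrane channel that releases ATP, stood at 13.5 ± 6.85 CPM in type II neurons, against 20.9 ± 3.36 in type IA, 48.9 ± 4.30 in IB and 54.6 ± 4.55 in IC. It was lower in type II in all mice (-1.70 ± 0.31, edgeR adjusted p = 2.26e-05, -3.64 without type II cells lacking Prph and -3.05 with rebuilt labels) and, within type I, lower in type IA than in the other subtypes (-1.28 ± 0.07, adjusted p = 7.41e-21). Slc29a2, a nucleoside transporter, was lower in type II by -2.42 ± 0.54 (adjusted p = 0.000449). Its type II level of 3.95 ± 3.13 CPM rested on 4 UMIs, where 3 UMIs are 2.33 CPM, against means of 15.1 to 16.5 CPM in the type I subtypes. Gja1, a gap junction gene of glia, was at 19.4 ± 13.8 CPM in type II and 20.4 ± 7.12 in putative neurons, against 1.90 to 2.06 in type I, a log2 difference of 3.30 ± 0.47 for type II (adjusted p = 1.48e-07). Satellite glia markers were high in the same populations, and without Fabp7-bearing cells the Gja1 difference was 0.28 (adjusted p = 0.913).

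Among ASIC relatives and partners, 1 of 5 tested genes was higher in type II and 0 were lower by edgeR and DESeq2, with 2 of 5 under 0.05 before adjustment. It was Scnn1b, a subunit of the epithelial sodium channel, at 19.5 ± 11.2 CPM in type II neurons and 0.895 to 1.07 CPM in type I (4.25 ± 0.47, edgeR adjusted p = 2.43e-10, 4 of 4 mice). It had 118 UMIs in all, at least 7.59 CPM in type II sums and at most 1.83 in type I sums. The type II sums thus helped it past the low-count filter, a limit on its adjusted p. Other damage-sensing channels had 2 of 5 higher and 1 lower by edgeR and 2 past the threshold by DESeq2, beside the same 11.9% and 11.5% of all genes. Scn9a, the sodium channel of pain fibres, was at 90.1 ± 41.0 CPM in type II neurons and 0.866 to 2.35 CPM in type I (5.74 ± 0.26, adjusted p = 5.72e-24), and the single cell of mouse 4 held 13 of its 95 type II UMIs. Trpv2, a cation channel opened by high heat, was at 14.8 ± 6.60 CPM in type II neurons and 0.423 to 0.573 CPM in type I (4.60 ± 0.64, adjusted p = 8.04e-08). With 67 UMIs in all, its pass of the low-count filter rested on the sums where it was high, so the same limit applies to its adjusted p. Trpm7, a channel with a kinase domain, was at 54.8 ± 17.2 CPM in type II neurons and 66.1 to 80.1 CPM in type I. Its small difference (-0.49 ± 0.18, adjusted p = 0.0443) was lower in 3 of 4 mice and did not hold without mouse 1 (adjusted p = 0.569), mouse 2 (0.0596) or mouse 4 (0.0836), in DESeq2 (0.0774), with DESeq2 size factors (0.0847), without Fabp7-bearing cells (0.0753) or with rebuilt labels (0.0660).

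Other mechanosensory genes had 2 of 15 tested higher and 3 lower in type II by edgeR and 4 past the threshold by DESeq2, again beside 11.9% of all genes higher and 11.5% lower. Tmem87a was higher by 1.02 ± 0.21 (edgeR adjusted p = 0.000170) and Trpc1, a cation channel subunit, by 0.86 ± 0.25 (adjusted p = 0.00901). The first call was lost without mouse 3 (0.0573) and the second without mouse 1 (0.0847) and without type II cells lacking Prph (0.0681). Tmem63c was lower by -2.77 ± 0.98 (adjusted p = 0.0331) and was lost without mouse 1 (0.201), mouse 2 (0.0756) or mouse 4 (0.0890), in DESeq2 (0.0812), without type II cells lacking Prph (0.256), without Fabp7-bearing cells (0.139) and with rebuilt labels (0.110). P2X relatives had 0 of 1 gene past the threshold and P2Y and adenosine receptors 0 of 3, in edgeR and in DESeq2, with 0 and 3 under 0.05 before adjustment.

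In the subtypes, edgeR passed 13 of 43 genes of these lists in type IA (9 in DESeq2), 5 in IB (2 in DESeq2) and 14 in IC (8 in DESeq2). Over all genes 28.2% passed in type IA, 6.17% in IB and 25.9% in IC. Kcnk10, a stretch-sensitive potassium channel, was highest in type IB, at 3.84 ± 0.0608 CPM, and lower elsewhere, at 1.25 ± 0.216 (type IA) and 1.67 ± 0.453 CPM (type IC). It was higher in type IB by 1.42 ± 0.24 (edgeR adjusted p = 2.40e-05) and lower in type IA by -1.03 ± 0.27 (adjusted p = 0.00267). Kcnk10 had 177 UMIs in all, at least 3.78 CPM in type IB sums and at most 1.46 in type IA and 2.11 in type IC sums. Its pass of the low-count filter thus rested on type IB, where it was high, a limit on both adjusted p. Adora1, an adenosine receptor, was higher in type IB by 1.35 ± 0.24 (adjusted p = 5.99e-05, 0.0648 in DESeq2) and lower in type IA by -0.91 ± 0.27 (adjusted p = 0.00731, 0.141 in DESeq2, 0.131 without the mouse block and 0.0927 without mouse 3). Entpd3, an enzyme that breaks down ATP outside the cell, was lower in type IA by -0.57 ± 0.11 (adjusted p = 3.77e-05) and higher in type IC by 0.41 ± 0.10 (0.00138). Panx1 was also higher in type IB (0.53 ± 0.07, adjusted p = 3.46e-08) and in type IC (0.74 ± 0.06, 3.88e-14). Scn9a within type I was lower in type IA (-1.09 ± 0.31, adjusted p = 0.00478) and higher in type IC (0.99 ± 0.26, 0.00317).

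Trpm7 was higher in type IA by 0.28 ± 0.05 (edgeR adjusted p = 2.65e-05). Several other small differences in the same lists were lost in other settings. Lhfpl5, part of the transduction complex of hair cells, was higher in type IC by 0.30 ± 0.07 (adjusted p = 0.00164) and lost the call there without mouse 2 (0.0869). P2ry14, a receptor for UDP-glucose, was lower in type IA (-0.66 ± 0.23, adjusted p = 0.0260) and higher in type IC (0.59 ± 0.21, 0.0343), and DESeq2 passed neither (0.0534 and 0.0725), nor did edgeR without the mouse block (0.0698 and 0.101), without mouse 3 (0.231 and 0.194), without mouse 4 (0.129 and 0.106) or with rebuilt labels (0.520 and 0.0698), and the type IC call was also lost without mouse 1 (0.0844) and without shallow cells (0.0860). Trpc1 in type IA, Lhfpl5 in IB and Stoml2, Kcnk2 and Trpm7 in IC also passed and were lost in at least 1 other setting. In putative neurons 7 of 43 passed in edgeR, all higher, and 7 in DESeq2, where 10.2% of all genes passed as higher and 3.50% as lower. Among them were Gja1 (2.61 ± 0.26, adjusted p = 1.20e-11), Enpp2, an enzyme that makes lysophosphatidic acid, at 33.9 ± 7.92 CPM (2.18 ± 0.17, adjusted p = 9.80e-15), and Kcnk2, another stretch-sensitive potassium channel, at 28.9 ± 15.8 CPM (2.17 ± 0.23, adjusted p = 1.02e-10, higher in 3 of 4 mice). Satellite glia and fibroblast markers were also higher in putative neurons than in type I. The part of other cells' RNA in these values was not tested.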

How the data were processed

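Cochlear neurons of 4 mice were profiled with 10x Genomics v2 droplet chemistry, per the labels' protocols. The authors deposited raw UMI counts per gene and cell in a table per mouse, with a cell annotation of type and subtype that was used as it stands. Cell Ranger 2.0.1, Seurat 1.4 and build mm10 are named in the submitters' processing notes; the sources used here do not give filters on cells, doublet treatment or strand settings, and no doublet caller was run. The members and lists were chosen with earlier results of these data known.

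UMIs were summed into 20 sums of mouse and population (131668 to 10156321 UMIs each) and fitted in edgeR 4.0.16 (R 4.3.3; filterByExpr, TMM, quasi-likelihood test, mouse as block) over 13005 genes. Contrasts took unweighted means of the populations set against each other, with Benjamini-Hochberg adjustment over all genes of a comparison and a threshold of 0.05. The SE follows from the estimate and its F value. Levels are CPM, UMIs per 1000000 of a sum, given as mean ± SD over mice. The mouse block reflects shared animals: same-mouse deviations correlated at 0.117 to 0.842 in every pair of populations. Cells of a population count as 1 sample per mouse. With the mouse block, edgeR p-values rest on how far differences between populations vary among these 4 mice. That spread is estimated over all 20 sums together, with 12 residual degrees of freedom. It also borrows from other genes, with a median of 36.5 prior degrees of freedom.

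For shares of cells, each cell was thinned at random to 4215 UMIs (percentile 10). Floors stand for 3 UMIs over a population. Labels rebuilt without the members assigned each cell to the population whose mean profile in the other mice it correlated with best, over 10071 genes, and gave 83.4% of cells the authors' label, but 72.6% of type II cells and 43.2% of putative neurons. Named list genes were those with the largest differences past the threshold with at least 20 UMIs, up to 3 per list for type II and 2 otherwise. Gene likeness used members and genes with at least 500 UMIs. The fit was also run on simulated sums without a mouse effect, where only genes with many UMIs were changed, in type II alone. That run does not cover the mouse block, rare members or small differences between subtypes. DESeq2 1.42.0 and the other settings are described in the closing section. A deposited normalized table was not used.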

Additional observations from a re-analysis of the deposited data

Results flagged for a closer look

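In 5 of 43 groups of 4 mice that held a UMI of a channel gene, 1 mouse lay far from the other 3 (a gap over range above Dixon's critical value). In 3 of the 5 only 1 mouse had any UMI, which puts the ratio past that value by construction, and the rate of about 1 group in 20 by chance does not apply to them. For P2rx3 in type II it was mouse 4, at 22.7 CPM against 0 in the others, all from 1 cell. For Piezo1 in type II it was mouse 1, at 3.66 CPM against 0, from 2 UMIs in 2 cells without Prph. For Asic2 in type IB it was mouse 3, at 0.166 CPM from 1 UMI. For Asic3 in type IB it was mouse 2, at 617 CPM against 537 to 551 in the others, and for Asic3 in type IC mouse 1, at 591 CPM against 606 to 609.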

How the results depend on the processing

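Of the members' log2 differences under other settings, 404 kept their direction or stayed uncalled, 24 lost a call and 2 gained 1, and no called value that could be tested turned its sign. A further 25 could not be tested, all of Piezo2 in 5 settings (without mouse 2, type II cells lacking Prph, shallow cells or the single P2rx3 cell, and with rebuilt labels), which took its type II call away in all 5. The gains were Asic1 in type IC with rebuilt labels (-0.15, edgeR adjusted p = 0.00789) and Piezo2 in putative neurons without mouse 4. The Piezo2 gain came with a lower type II level in the mean and is not read as a difference. Leaving out 1 mouse at a time gave 2172 to 2864 genes past the threshold for type II (3040 with all mice), 2663 to 3408 for type IA (3667), 492 to 712 for type IB (802), 2410 to 3078 for type IC (3366) and 1115 to 1644 for putative neurons (1783, the lowest without mouse 2). Members called then numbered 1 to 2 in type IC and 0 to 2 in putative neurons, with 0 in edgeR without mouse 2 or mouse 3, where 2 of 7 had an unadjusted p under 0.05. Without the replicate block the counts were 2011 for type IA, 310 for type IB and 1684 for type IC, with 0 members called in type IC. The block changed no call of a member in type II, type IB or putative neurons. Without cells holding 3 or more Fabp7 UMIs, 1896 genes passed for type II. For putative neurons, 1152 passed without shallow cells and 3450 with rebuilt labels, and 1 member was called in each, as without the type II cells lacking Prph. Leaving out the single P2rx3 cell, chosen after seeing the data, gave 2946 genes for type II. Depth limits the rare members, since 3 UMIs are 2.33 CPM in type II, and 38 of 45 shares of cells moved by more than 1 SD without thinning.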
